A study of Caenorhabditis elegans with 12 samples.

Results

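Astacins are secreted or membrane-bound zinc metalloproteases named after a digestive enzyme of the crayfish. They are made as inactive precursors, are switched on when a propeptide is removed, and cut proteins outside the cell, such as procollagens, old cuticle and eggshell. In Caenorhabditis elegans most of the family carry the name nas (nematode astacin), and members are known for roles in hatching, collagen maturation, shedding of the cuticle at a molt and formation of the pharynx. The genes described here were those whose array probe sets named a single gene called nas with a number, or hch-1, dpy-31 or toh-1. This rule found 36 genes with 43 probe sets among 22548 probe sets other than array controls, and the probe set with the highest mean over all arrays stood for each gene. Of the 36 genes, 31 had 1 probe set, 3 had 2 and 2 had 3. A further probe set, shared by nas-2 and another gene, was left out.

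Total RNA of whole young adult worms was hybridised to Affymetrix C. elegans arrays, 1 array for each of 12 samples. Strain N2 served as wild type. Strain BA1 carries fer-1 (hc1ts) and strain BA24 carries fer-1 (hc24ts), both temperature-sensitive alleles, called hc1 and hc24 here, and each of the 3 groups had 4 arrays. All were grown from synchronised L1 larvae at 25 °C, and a sorter collected 1000 adults per sample with a gate set against L4 and younger animals. Each mutant strain carries 1 allele, so the allele and the rest of that strain's background cannot be told apart. The product of fer-1 is a ferlin of the sperm, known for its role in sperm maturation.

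The deposited values are log2 expression values, 1 per probe set and array. A probe set was tested when it reached a log2 value of 4 in at least 4 of the 12 arrays, and a gene is called changed at an adjusted p under 0.05 in a limma fit of all 12 arrays with adjustment over all 11833 tested probe sets. Per the series design, the submitters prepared RNA 6 times for each genotype and hybridised the 4 preparations that correlated best, so the spread given here is that of chosen samples. Array medians lay between 4.56 and 4.68 in wild type and between 4.35 and 4.40 in the mutants. The median of the log2 differences from wild type over all tested probe sets was 0.14 in hc1 and 0.12 in hc24. The differences below can be read against that shift. In bulk samples such as these, fewer cells of a type and less RNA per cell cannot be told apart.

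Most of the family stayed under log2 4. Of the 36 genes 8 passed the filter on low values, beside 11833 of all 22548 probe sets other than array controls. The other 28 genes did not pass, and 0 of these 28 reached log2 4 in any array. Their values ran from 1.49 to 3.91. For 22 of the 28, all 12 arrays lay within a span of 0.2, and the median span was 0.10. The 28 genes were nas-1, nas-4, nas-5, nas-6, nas-8, nas-10, nas-12, nas-13, nas-14, nas-15, nas-16, nas-17, nas-18, nas-19, nas-21, nas-22, nas-24, nas-25, nas-27, nas-28, nas-29, nas-30, nas-31, nas-32, nas-33, nas-36, nas-38 and nas-39. The table used here holds no detection calls, so a low value cannot be told from a probe set that responds poorly.

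Several genes with known roles were in this low set. nas-36, required with nas-37 for shedding of the old cuticle, lay between 2.66 and 2.75 in all 12 arrays. nas-6, which acts with nas-7 in the grinder of the pharynx, lay between 1.69 and 1.73. nas-39, the family member most like vertebrate tolloid and BMP1 proteases, lay between 1.49 and 1.51. nas-5 had the widest span of the 28, 1.01, because wild type replicate 3 read 3.59 while the other wild type arrays read 2.81 to 3.02 and the mutant arrays 2.58 to 2.68. No direction is drawn from values under log2 4.

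**Figure D1:**
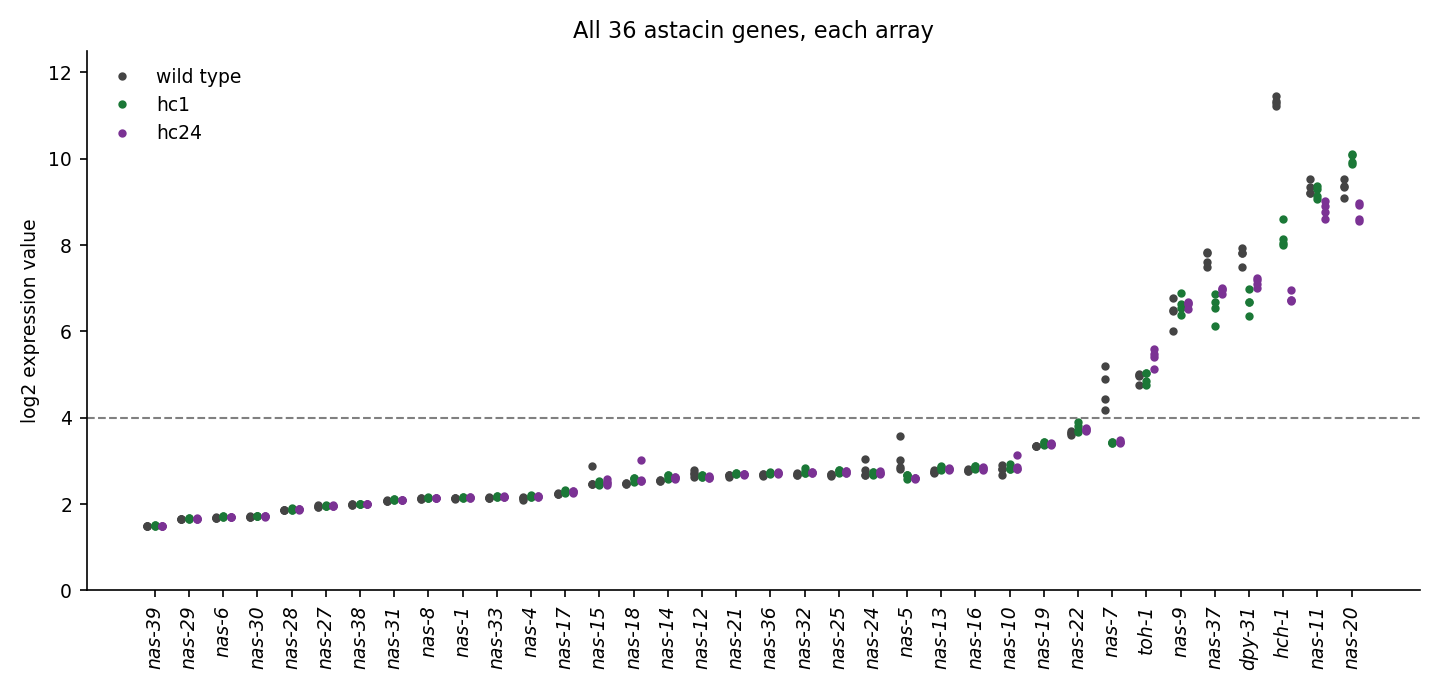
Log2 expression value of all 36 astacin genes (vertical axis) in each of the 12 arrays, with genes ordered by their mean and 4 points per group; the dashed line marks log2 4. The 8 tested genes are on the right, and the other 28 stay below the line in every array; heights of different genes are not comparable, since probe sets differ in response.

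The 8 genes that were tested were hch-1, dpy-31, nas-37, nas-7, nas-20, nas-11, toh-1 and nas-9. nas-7 passed the filter only through wild type, the group in which it is high, and so had to differ: it is left out of the counts and medians that follow. Of the other 7, in hc1 against wild type 3 were lower and 1 was higher, beside 25.9% lower and 43.3% higher among all tested probe sets. In hc24 against wild type 5 of the 7 were lower and 1 was higher, beside 21.7% and 37.7%. The median log2 difference of the 7 was -0.10 in hc1 and -0.57 in hc24, and that of all tested probe sets was 0.14 and 0.12. For 4 of the 7 the hc1 arrays stood clear of all wild type arrays, as they did for 64.9% of all tested probe sets, and for 6 the hc24 arrays did, beside 55.2%. Both comparisons use the same wild type arrays.

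**Figure D2:**
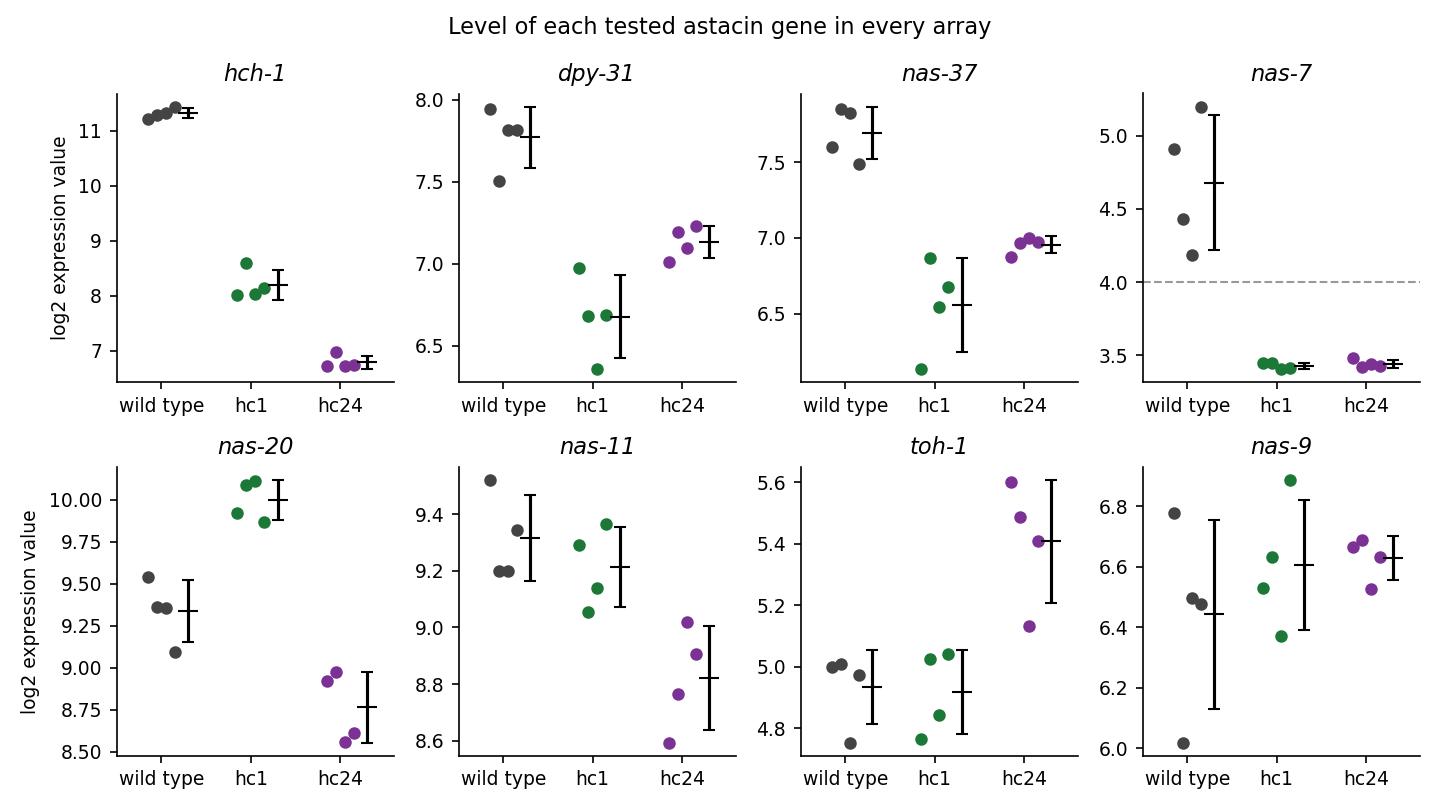
Log2 expression value of each tested astacin gene in every array, with 4 points per group and the mean with its SD beside them; the dashed line in the nas-7 panel marks log2 4, and each panel has its own scale that does not start at 0. hch-1, dpy-31, nas-37 and nas-7 are highest in wild type, nas-20 is highest in hc1 and lowest in hc24, and nas-9 overlaps in all 3 groups.

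hch-1 encodes the hatching protease, which acts on the eggshell when the larva leaves it and is also known for a role in the migration of neuroblasts. Its log2 value was 11.22, 11.29, 11.33 and 11.44 in wild type replicates 3, 4, 5 and 6. In hc1 replicates 1, 2, 5 and 6 it was 8.01, 8.60, 8.04 and 8.14. In hc24 replicates 1, 2, 3 and 5 it was 6.71, 6.97, 6.73 and 6.74. The 3 groups were fully separate, with wild type highest and hc24 lowest.

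hch-1 lay at the 89.5 to 91.0 percentile of the wild type arrays, at the 63.9 to 67.5 percentile in hc1 and at the 58.1 to 59.2 percentile in hc24. It fell 8.73-fold in hc1 (log2 difference -3.13, SE 0.12, adjusted p = 4.83e-10) and 23.2-fold in hc24 (-4.53, SE 0.12, adjusted p = 1.90e-11). Counted from the largest fall, this was place 125 of 11833 tested probe sets in hc1 and place 60 in hc24. The alleles differed from each other by 2.66-fold, with hc1 higher (log2 difference 1.41, 95% interval 1.15 to 1.67, adjusted p = 3.81e-06). Among the 8 genes hch-1 had the largest difference in each of the 3 comparisons.

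dpy-31 encodes a procollagen C-proteinase that matures the cuticle collagen SQT-3, and its loss gives short, fat worms. It read 7.94, 7.50, 7.82 and 7.82 in wild type replicates 3 to 6, 6.98, 6.68, 6.36 and 6.69 in hc1 replicates 1, 2, 5 and 6, and 7.01, 7.19, 7.10 and 7.23 in hc24 replicates 1, 2, 3 and 5. No group overlapped another, and hc24 lay between the other groups. dpy-31 fell 2.13-fold in hc1 (log2 difference -1.09, SE 0.13, adjusted p = 9.01e-06) and 1.56-fold in hc24 (-0.64, SE 0.13, adjusted p = 0.000900). hc1 was lower than hc24 by 1.37-fold (log2 difference -0.46, 95% interval -0.73 to -0.18, adjusted p = 0.0156), a call that was lost with the replicate number as a block (-0.44, adjusted p = 0.0536).

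The 2 other dpy-31 probe sets moved the same way against wild type. In hc1 they were 3.17-fold and 2.50-fold lower (adjusted p = 6.88e-05 and 1.97e-05), and in hc24 1.99-fold and 1.68-fold lower (adjusted p = 0.00387 and 0.00212). Between the alleles 1 of these 2 passed (log2 difference -0.58, adjusted p = 0.0199) and the other did not (-0.67, adjusted p = 0.0557).

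nas-37 is needed for the shedding of the old cuticle at molts. Its value was 7.60, 7.85, 7.83 and 7.49 in wild type replicates 3 to 6, 6.13, 6.86, 6.55 and 6.67 in hc1 replicates 1, 2, 5 and 6, and 6.87, 6.97, 7.001 and 6.98 in hc24 replicates 1, 2, 3 and 5. Every mutant array lay below every wild type array. nas-37 fell 2.20-fold in hc1 (log2 difference -1.14, SE 0.14, adjusted p = 1.21e-05) and 1.67-fold in hc24 (-0.74, SE 0.14, adjusted p = 0.000537).

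The alleles were separated for nas-37 by a narrow gap, from 6.86 in the highest hc1 array to 6.87 in the lowest hc24 array. The log2 difference of hc1 from hc24 was -0.40 (95% interval -0.69 to -0.11, adjusted p = 0.0409). That call was lost without hc1 replicate 1 (log2 difference -0.26, adjusted p = 0.0970) or hc1 replicate 5 (adjusted p = 0.0791), with the replicate number as a block (adjusted p = 0.0656), and without hc24 replicate 1, 2, 3 or 5 (adjusted p = 0.0581, 0.0792, 0.0864 and 0.0779). The falls of nas-37 against wild type were called in all 21 alternative settings, these included.

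nas-7, known with nas-6 for the grinder of the pharynx, was close to the log2 4 cutoff even in wild type. It read 4.91, 4.43, 4.18 and 5.20 in wild type replicates 3 to 6, at the 48.7 to 51.9 percentile of those arrays. Its 8 mutant values lay between 3.41 and 3.48, all under log2 4. With the mutant groups held at log2 4, nas-7 was at least 1.60-fold lower in hc1 and at least 1.60-fold lower in hc24. These folds are a description with no test, since the gene entered the fit through its 4 wild type arrays alone, and without any 1 of them it did not pass the filter.

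nas-20 moved in opposite directions in the 2 mutants. It read 9.54, 9.36, 9.36 and 9.09 in wild type replicates 3 to 6, 9.92, 10.09, 10.11 and 9.87 in hc1 replicates 1, 2, 5 and 6, and 8.92, 8.97, 8.56 and 8.61 in hc24 replicates 1, 2, 3 and 5. No group overlapped another: hc1 was highest, wild type was in the middle and hc24 was lowest. nas-20 rose 1.58-fold in hc1 (log2 difference 0.66, SE 0.12, adjusted p = 0.000307) and fell 1.49-fold in hc24 (-0.57, SE 0.12, adjusted p = 0.00121).

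The alleles differed for nas-20 by 2.35-fold (log2 difference 1.23, 95% interval 0.98 to 1.49, adjusted p = 9.06e-06), place 171 from the largest rise among 11833 probe sets. Both directions held in each of the 21 alternative settings. In hc1 the log2 difference from wild type ran from 0.46 to 0.91 over these settings (adjusted p of 0.00883 at most), and in hc24 from -0.71 to -0.32 (adjusted p of 0.0203 at most).

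nas-20 belongs to a group of astacin genes on chromosome V. In the gene order of assembly WBcel235, nas-20, nas-21 and nas-22 are successive protein-coding genes, and nas-16 to nas-19 lie before them within a run of 21 protein-coding genes that ends with nas-22. The nas-21 probe set stayed between 2.64 and 2.71 and that of nas-22 between 3.60 and 3.91 in all 12 arrays. Of the 7 members of this run, nas-20 alone passed the filter on low values. All 36 genes were found in that assembly's gene table, 11 on chromosome V, 9 on X, 5 on III, 4 on II, 4 on IV and 3 on I.

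nas-11 was lower in hc24. It read 9.52, 9.20, 9.20 and 9.34 in wild type replicates 3 to 6, 9.29, 9.06, 9.14 and 9.36 in hc1 replicates 1, 2, 5 and 6, and 8.59, 8.77, 9.02 and 8.91 in hc24 replicates 1, 2, 3 and 5. The hc24 arrays lay below all others, while hc1 and wild type overlapped. nas-11 fell 1.41-fold in hc24 (log2 difference -0.49, SE 0.11, adjusted p = 0.00186). In hc1 the difference did not pass (-0.10, 95% interval -0.34 to 0.13, adjusted p = 0.412), and its sign turned to 0.15 with median centring. hc1 was 1.31-fold higher than hc24 (log2 difference 0.39, 95% interval 0.16 to 0.63, adjusted p = 0.0160).

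toh-1, named for its likeness to tolloid, was higher in hc24. It read 5.00, 5.01, 4.75 and 4.97 in wild type replicates 3 to 6, 4.76, 5.03, 4.84 and 5.04 in hc1 replicates 1, 2, 5 and 6, and 5.60, 5.48, 5.13 and 5.41 in hc24 replicates 1, 2, 3 and 5. All hc24 arrays lay above all others, and hc1 and wild type overlapped. toh-1 rose 1.39-fold in hc24 (log2 difference 0.47, SE 0.11, adjusted p = 0.00222) and did not pass in hc1 (-0.02, 95% interval -0.25 to 0.22, adjusted p = 0.904). hc1 was 1.40-fold lower than hc24 (log2 difference -0.49, 95% interval -0.72 to -0.26, adjusted p = 0.00408). The 2 other toh-1 probe sets did not pass the filter. They reached log2 4 in hc24 arrays alone, 1 probe set in 2 arrays and the other in 1 array, and no direction is drawn from them.

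nas-9 did not pass in any of the 3 comparisons. It read 6.78, 6.02, 6.50 and 6.48 in wild type replicates 3 to 6, 6.53, 6.63, 6.37 and 6.89 in hc1 replicates 1, 2, 5 and 6, and 6.67, 6.69, 6.53 and 6.63 in hc24 replicates 1, 2, 3 and 5. All 3 groups overlapped. The log2 difference was 0.16 in hc1 (95% interval -0.15 to 0.48, adjusted p = 0.329) and 0.19 in hc24 (95% interval -0.13 to 0.50, adjusted p = 0.283). A second nas-9 probe set gave -0.14 in hc1 and 0.26 in hc24 (adjusted p = 0.387 and 0.132). It passed between the alleles, with hc1 lower (log2 difference -0.40, adjusted p = 0.0487), where the brighter probe set gave -0.02 (adjusted p = 0.925), so the probe sets of this gene disagree.

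**Figure D3:**
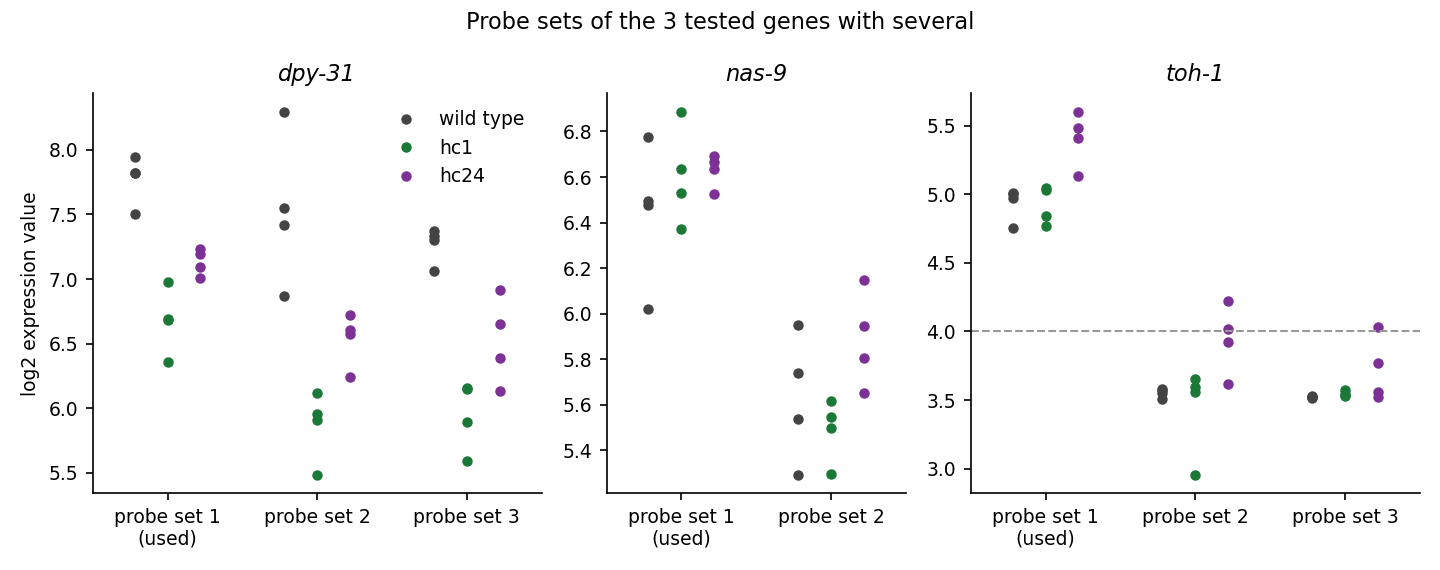
Log2 expression value (vertical axis) of every probe set of dpy-31, nas-9 and toh-1, the tested genes with several, with 4 points per group; the probe set used is on the left of each panel and the dashed line marks log2 4. The 3 dpy-31 probe sets all have hc1 below wild type, while the nas-9 probe sets differ in how hc24 stands to hc1.

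Between the alleles 3 of the 7 genes other than nas-7 were higher in hc1 and 3 were lower, beside 18.6% and 12.2% of all tested probe sets. Higher in hc1 were hch-1, nas-20 and nas-11, and lower were dpy-31, nas-37 and toh-1. hch-1 and nas-20 differed at least 2-fold, which 5.59% of all tested probe sets did. Arrays of the 2 mutants did not overlap for 6 of the 7 genes, beside 34.6% of all tested probe sets. hch-1 and the pair dpy-31 and nas-37 stood in different orders: all 3 were highest in wild type, but hch-1 was lowest in hc24 and the others were lowest in hc1, an order that for dpy-31 and nas-37 rests on the allele differences lost under the settings given above.

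**Figure D4:**
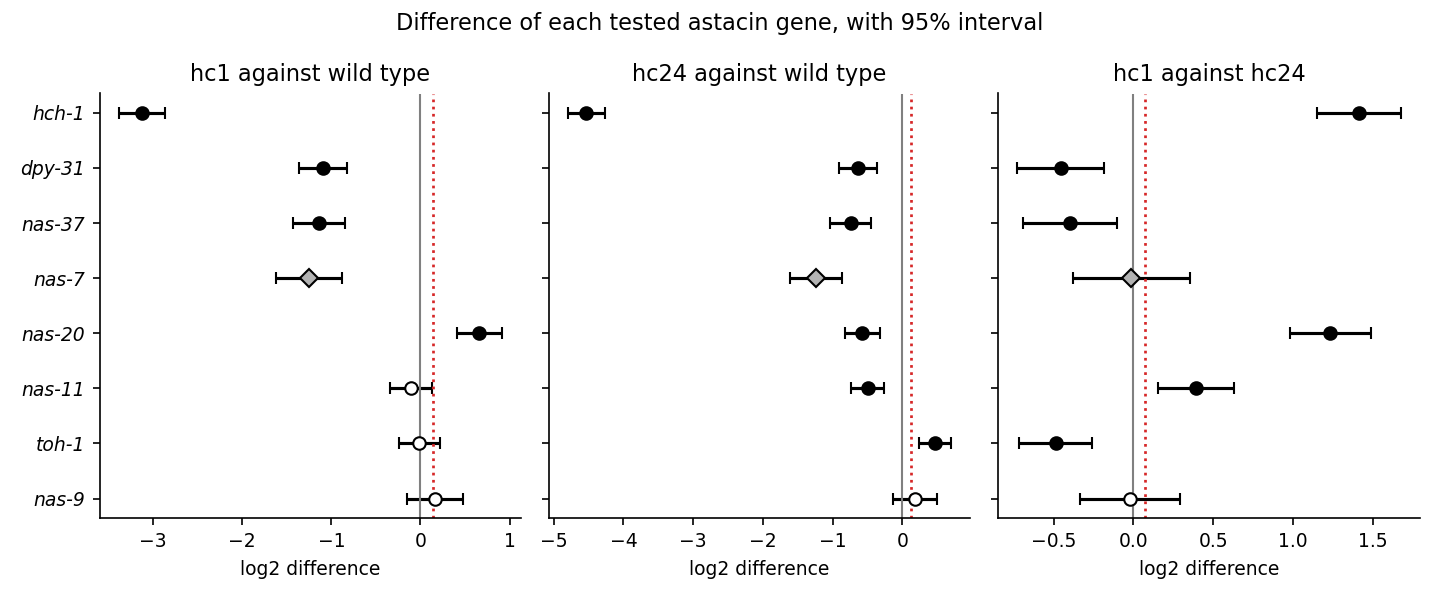
Log2 difference (horizontal axis) of each tested astacin gene in the 3 comparisons, with 95% intervals from the limma fit; black points passed at adjusted p under 0.05, white points did not, the grey diamond is nas-7, which passed the filter through wild type alone, the grey line is 0 and the dotted red line is the median of all tested probe sets. hch-1 has the largest fall in both mutants, and nas-20 is above 0 in hc1 and below 0 in hc24.

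Genes that work beside the astacins were read from 3 lists. Of 15 tested genes of cuticle collagen processing and its partners, 9 were lower and 0 higher in hc1 (median -0.59), and 9 were lower and 1 higher in hc24 (median -0.88). Among all tested probe sets 25.9% were lower and 43.3% higher in hc1, and 21.7% and 37.7% in hc24. The 2 probe sets of sqt-3, the collagen that DPY-31 matures, did not give the same picture. The brighter, of the type that can also bind transcripts of related genes, read 15.91 ± 0.07 (SD, n = 4) in the wild type arrays, 15.43 ± 0.19 in those of hc1 and 15.75 ± 0.09 in those of hc24, 1.40-fold lower in hc1 (adjusted p = 0.000441) and not called in hc24 (log2 difference -0.17, adjusted p = 0.130). The dimmer fell from 14.01 ± 0.16 (SD, n = 4) to 11.72 ± 0.20 with hc1 and to 10.19 ± 0.30 with hc24, which is 4.90-fold and 14.2-fold (adjusted p = 4.73e-08 and 3.80e-10). The brighter had hc1 below hc24 (log2 difference -0.32, adjusted p = 0.0180, and without hc24 replicate 5 -0.28, adjusted p = 0.0510), while the dimmer had hc1 2.90-fold above hc24 (adjusted p = 9.06e-06).

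dpy-17, a collagen gene linked to dpy-31 and sqt-3 by genetics, fell 7.16-fold in hc1 and 17.3-fold in hc24 (adjusted p = 9.05e-09 and 2.84e-10). The collagen genes dpy-2, dpy-7 and dpy-3 fell 17.7-fold, 16.4-fold and 5.38-fold in hc1 and 18.4-fold, 20.6-fold and 4.68-fold in hc24 (adjusted p of 1.81e-08 at most). dpy-17 and the dimmer sqt-3 probe set, like hch-1, had hc1 between wild type and hc24. bli-4, a proprotein convertase that also processes collagens, was not called by its brightest probe set in hc1 (0.18, adjusted p = 0.0856) or in hc24 (0.04, adjusted p = 0.735), but was called as higher in both with median centring (adjusted p = 0.000969 and 0.0130) or the mean of its probe sets (adjusted p = 2.66e-05 and 0.000185), and in hc1 with the replicate block (adjusted p = 0.0292) or without wild type replicate 3 (adjusted p = 0.0496). Of its 9 probe sets 6 passed as higher in hc1 and 5 in hc24, and 0 as lower. The brightest bli-4 probe set, like the brighter of sqt-3, is of the type that can also bind transcripts of related genes.

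Of 22 tested molting cycle genes 1, mlt-9, passed the filter through wild type alone and is not counted here. Of the other 21, 18 were lower and 1 higher in hc1 (median -1.78), and 19 were lower and 0 higher in hc24 (median -1.65), above the 25.9% and 21.7% of all tested probe sets that were lower. mlt-11, which encodes a protein with Kunitz-type protease inhibitor domains, fell 11.9-fold in hc1 and 21.3-fold in hc24 (adjusted p = 2.71e-10 and 4.09e-11). peb-1, a DNA-binding factor of the pharynx and of molting, fell 6.22-fold and 15.4-fold, and noah-1 and noah-2, of the apical extracellular matrix, fell 7.64-fold and 6.54-fold in hc1 and 16.2-fold and 14.3-fold in hc24 (adjusted p of 9.83e-09 at most). In all 4, named for their small adjusted p against wild type, hc1 stood between wild type and hc24, as in hch-1. The allele difference of all 4 passed (adjusted p of 0.000391 at most). A second peb-1 probe set, with both mutant means under log2 4, gave 0.12 between the alleles (adjusted p = 0.805). Of the 21 genes 9 were higher in hc1 than in hc24, beside 18.6% of all tested probe sets. Lower was 1, mlt-3 (-0.72, adjusted p = 0.0450), beside 12.2%. dpy-31 and nas-37 stood in the other order. nhr-23, a nuclear receptor that drives molting genes, gave 0.32 in hc1 (adjusted p = 0.0339) and 0.21 in hc24 (adjusted p = 0.161). The call in hc1 was lost with cyclic loess (0.12, adjusted p = 0.406), without the filter, with only the groups compared and with the mean of its probe sets (adjusted p = 0.0510, 0.0504 and 0.0634), and without wild type replicate 3, 5 or 6 or hc1 replicate 5 or 6 (adjusted p = 0.0545, 0.104, 0.0751, 0.0631 and 0.104). In hc24 the difference was called with median centring (0.46, adjusted p = 0.00694), with the replicate block (0.41, adjusted p = 0.0128) and without wild type replicate 4 (0.30, adjusted p = 0.0419). A second nhr-23 probe set did not pass in either mutant (adjusted p = 0.382 and 0.0952).

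The remaining list held ADAM, ADAMTS, matrix metalloprotease and neprilysin genes with the TIMP-like inhibitors, of which 14 of 42 were tested. In hc1 8 were lower and 4 higher (median -0.31), beside 25.9% lower and 43.3% higher among all tested probe sets. In hc24 4 were lower and 5 higher (median 0.00). The hc24 counts are near the background of 21.7% lower and 37.7% higher. cri-2, a TIMP-like inhibitor gene, fell 2.68-fold in hc1 and 2.85-fold in hc24 (adjusted p = 4.99e-07 and 3.00e-07), and adm-4, an ADAM protease gene, rose 1.98-fold and 1.84-fold (adjusted p = 1.18e-06 and 3.89e-06). The neprilysin gene nep-17 fell 1.25-fold in hc1, a call that median centring removed (-0.07, adjusted p = 0.329), and rose 1.73-fold in hc24 (adjusted p = 0.000676 and 3.81e-07). nep-22 fell 2.42-fold in hc1 (adjusted p = 5.91e-07) and gave -0.17 in hc24 (adjusted p = 0.180).

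**Figure D5:**
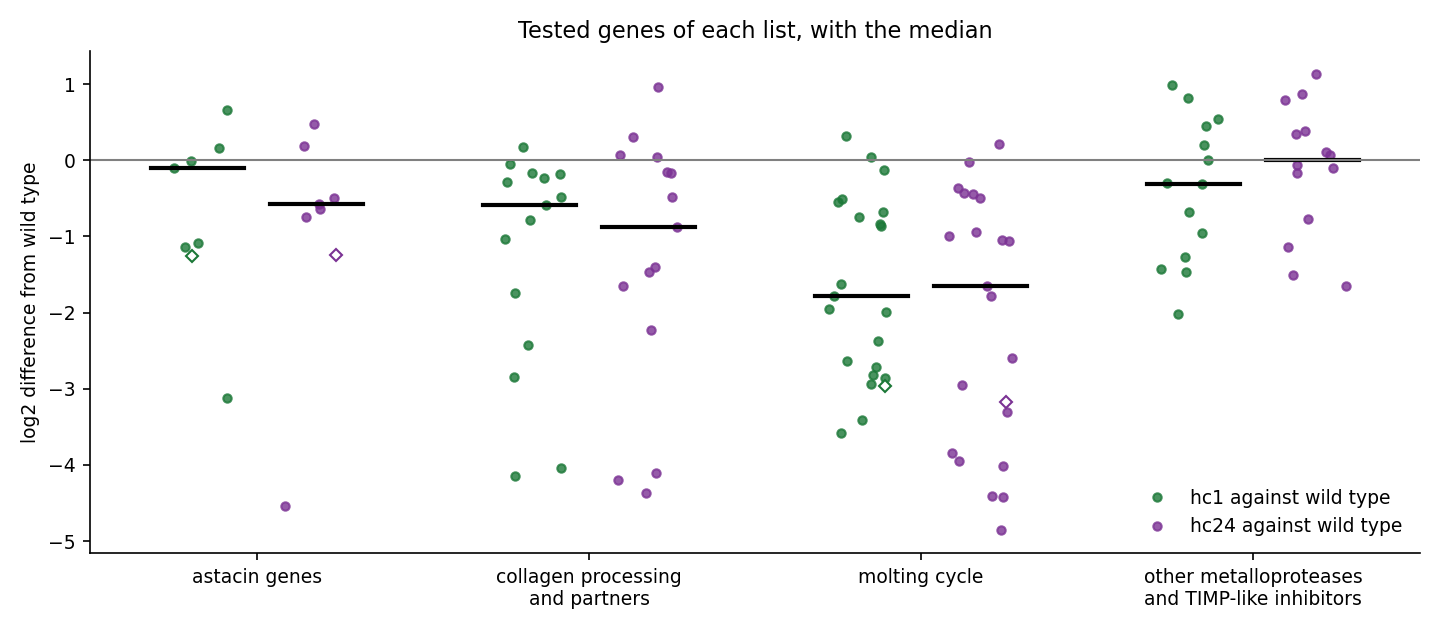
Log2 difference from wild type (vertical axis) of the tested genes of 4 lists in hc1 and in hc24, 1 point per gene, with the median as a bar; open diamonds are genes that passed the filter through 1 group alone and are left out of the median. The astacin medians are -0.10 in hc1 and -0.57 in hc24, the molting cycle medians are -1.78 and -1.65, and the other metalloproteases have medians of -0.31 and 0.00.

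Markers of cell types moved with the groups as well, and their counts too are set beside 25.9% lower and 43.3% higher of all tested probe sets in hc1 and 21.7% and 37.7% in hc24. Of 8 tested epidermis markers 6 were lower and 0 higher in hc1, and 6 were lower and 1 higher in hc24. The markers dpy-7, rol-6 and bli-1 are also on the list of cuticle collagen processing, so these lists are not independent. The log2 of the summed epidermis markers was 13.9 to 14.3 in wild type, 13.1 to 13.4 in hc1 and 14.3 to 14.5 in hc24. These sums weigh col-19 most, the brightest marker in each group (means of 13.14, 12.46 and 14.12). It was the 1 marker called higher in hc24 (1.98-fold), so the hc24 sum does not show the 6 lower markers. Of 14 tested pharynx markers 9 were lower and 2 higher in hc1, and 8 were lower and 4 higher in hc24, with a log2 of the sum of 11.5 to 11.96 in wild type, 10.5 to 11.1 in hc1 and 10.3 to 11.1 in hc24. Of the 21 early embryo markers that passed the filter through more than 1 group, 19 were higher and 2 lower in hc1. In hc24 19 were higher and 2 lower. The sums were 11.7 in wild type, 13.3 to 13.5 in hc1 and 13.1 to 13.3 in hc24. Among the 21, at least pes-10, sdz-9, sdz-10, sdz-26, sdz-29 and sdz-31 passed the filter through mutant arrays alone, with wild type means of 1.82 to 3.18. These genes had to be higher, so the counts of higher markers were partly set by the filter. Every array was under log2 4 for 10 of 27 pharynx markers in wild type and for 13 in each mutant, the myosin gene myo-2 among them in all groups, and for 2 of 10 epidermis markers in each group, bli-1 and che-14. Of 38 early embryo markers 23 were under log2 4 in every wild type array, 15 in hc1 and 16 in hc24. Their part in the differences of the astacin genes was not tested.

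Sperm markers set hc24 and 1 hc1 array apart. All 22 tested sperm markers, which were major sperm protein genes with near-identical sequences, were higher in hc24, beside 37.7% of all tested probe sets, and 0 passed in hc1. At least msp-49, msp-50, msp-74 and msp-142 passed the filter through mutant arrays alone, with wild type means of 2.82 to 3.24. Their calls in hc24 were therefore partly set by the filter. The log2 of the sum over all 28 sperm genes on the list ran from 9.90 to 14.2 in hc1, the highest being replicate 2. It ran from 10.3 to 11.8 in wild type and from 14.4 to 14.7 in hc24. The other 6 of 28 sperm genes on the list, gsp-3, gsp-4, msp-32, spe-9, spe-11 and spe-38, did not pass the filter and had group means under log2 4 in all groups. hc1 replicate 2 was the highest hc1 array for hch-1 and for nas-37 but within the range of the others for nas-20. Without it the log2 difference of hch-1 in hc1 was -3.26 from wild type (adjusted p = 1.06e-10) and 1.27 from hc24 (adjusted p = 1.03e-06).

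Oocyte and intestine markers completed the check. Of 9 oocyte markers 8 were higher in hc1, beside 43.3% of all tested probe sets, and 5 in hc24, beside 37.7%, and 0 were lower. Of 13 intestine markers 5 were lower in hc1, beside 25.9%, and 8 in hc24, beside 21.7%, and 0 were higher.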

How the data were processed

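Per the submitters' processing notes, the authors made the deposited log2 expression values with Affymetrix Expression Console and GCRMA, which corrects background from probe sequence, normalizes across arrays and summarises each probe set. Their versions are not stated there, and scanner files were not used here. From these values, limma 3.58.1 in R 4.3.3 fitted a mean per group over 12 arrays (9 residual degrees of freedom before moderation), without covariates, to probe sets with a log2 value of at least 4 in at least 4 arrays. P-values are two-sided and Benjamini-Hochberg adjusted over 11833 probe sets per comparison. Where a group mean was under log2 4, the group was held at 4 and the fold given as "at least". The fit was also run on simulated arrays with independent noise and 200 changed probe sets. Many more probe sets were called in these data, so that run does not vouch for the calls given here. Groups and replicate numbers came from the titles, which call the samples biological replicates.

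The members and lists were chosen with earlier results of these data known. All tested members are named. From each list the 4 genes with the smallest adjusted p in either mutant are named, with sqt-3, dpy-17, bli-4, nhr-23, mlt-11 and bli-5 where tested. Gene names came from the platform annotation, and 36 of 36 matched a RefSeq table of assembly WBcel235 by Entrez ID with 0 symbols changed. No coordinates or sequences are given. The number of arrays limits the precision.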

Additional observations from a re-analysis of the deposited data

Results flagged for a closer look

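In 2 of the 24 sets of 4 arrays, 8 genes in 3 groups, 1 array stood far from the others; chance alone gives about 1 in 20. hch-1 read 6.97 in hc24 replicate 2 and 6.71 to 6.74 in the other hc24 arrays. toh-1 read 4.75 in wild type replicate 5 and 4.97 to 5.01 in the other wild type arrays.

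The mutant groups differed by the test of hc1 against hc24 for 6 genes. On the log2 scale hc1 was higher by 1.41 for hch-1, by 1.23 for nas-20 and by 0.39 for nas-11. The difference was -0.46 for dpy-31, -0.40 for nas-37 and -0.49 for toh-1, with hc1 lower. The calls of dpy-31 and nas-37 were lost with the replicate number as a block (adjusted p = 0.0536 and 0.0656). For nas-20 the mutant groups lay on opposite sides of wild type.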

How the results depend on the processing

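The 24 gene results were recomputed under 21 settings, 12 of which leave out an array. Of 486 values 473 kept their side of the threshold and 0 called values changed sign. These totals include nas-7, which kept its side in all 15 settings that tested it. Its falls against wild type were set by the filter, so they say nothing about stability. nas-7 was not tested in 6 settings (the filter at log2 5, median centring and each wild type array left out). Without the filter on low values, 12 astacin genes were higher in hc1 and 3 in hc24, against 1 each with it, because genes under log2 4 entered. Of the 28 low members 11 were then called higher and 1 lower in hc1, and 2 higher and 2 lower in hc24. Among all probe sets without the filter, 55.5% were called in hc1 and 36.6% in hc24. No such member differed by more than 0.47. Median centring gave 2 higher in each mutant, adding nas-9 (0.41, adjusted p = 0.0109, and 0.44, adjusted p = 0.00818). Cyclic loess added a fall of nas-11 in hc1 (-0.29, adjusted p = 0.0344). The cause of these was not tested. Counting nas-7 where it passed the filter, which gives 4 lower genes in hc1 and 6 in hc24 with all arrays, leaving out any 1 array gave 3 or 4 lower genes in hc1, 5 or 6 in hc24 and 2 or 3 between the alleles, and left the higher counts at 1, 1 and 3. Of 945 values for 15 named genes of the lists, 916 kept their side; sqt-3 turned from -0.32 to 0.61 between the alleles with the mean of its probe sets (adjusted p = 0.000800), which disagree.

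The replicate numbers did not pair the arrays: same-numbered arrays had correlations of -0.07 to 0.08 in their deviations over 7 pairs, and 2 of 11 correlated best with their own number. With the replicate block 1 gene was lower in hc1 than in hc24, against 3, dpy-31 and nas-37 being lost (adjusted p = 0.0536 and 0.0656), and no other call changed among the 8 astacin genes; of the named list genes dpy-7 between the alleles (0.42, adjusted p = 0.0251), bli-4 in hc1 and nhr-23 in hc24 were gained. The nas-37 call was also lost without the filter (adjusted p = 0.0965) and with only the groups compared (adjusted p = 0.0545). Over all tested probe sets median centring moved the median shift to 0.39 in hc1 and 0.38 in hc24 and cyclic loess to -0.03 and 0.00, and 76.7% and 80.5% of calls were then higher with the former and 43.9% and 45.4% with the latter.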
